A study of Mus musculus with 12 samples.

Results

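The 2 long noncoding RNA genes described here are Neat1 and Malat1, which lie near each other on mouse chromosome 19. Their chromatin was followed in small-intestinal epithelium by the peaks of H3K4me3, trimethylation of lysine 4 on histone H3. Members were found by position, as every listed peak that touches a 60 kb window of the mm9 build, from 5790000 to 5850000 on chromosome 19. Malat1 was placed near 5795000 to 5805000 and Neat1 near 5841000 to 5848000. In 8 peak lists this gave 16 peaks: 8 at Malat1, 6 at Neat1 and 2 between these spans. Merging overlapping peaks gave 1 region for each gene, of 24352 merged regions in all. The pair was chosen by its covered length and peak calls in these libraries, in which the Neat1 region had stood out as longer at E14.5 than at E12.5. Peak presence, covered length and peak rank in the embryonic stages are therefore given as a description, without a test.

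The study compared 4 groups of cells, with 2 libraries each, described in the labels as biological duplicates. All came from the small intestine of mice of a mixed C57BL/6 CD1 background. The embryonic groups were epithelial cells of 2 embryonic stages, E12.5 and E14.5 in days of development, sorted as positive for EpCAM and negative for CD31, CD45 and DAPI. The adult groups, at postnatal day 60, were stem cells (ISC) and enterocytes from Lgr5EGFP-Cre-ERT males. ISC were sorted for high EGFP driven from the Lgr5 locus, and enterocytes carried the same allele and were sorted by the EpCAM gate. The labels name no enterocyte-specific surface marker in that sort, and do not say whether animals were pooled. Whether the 2 libraries of a group came from separate animals is not stated, so the spread between them may be partly technical. In bulk chromatin, a mark in fewer cells and a weaker mark in all cells cannot be told apart. With no gene annotation of mm9 used here, marker genes of the sorted cells were not located.

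H3K4me3 marks the start sites of active and poised genes, usually as a peak around the promoter, and it becomes wide at some highly transcribed genes. Both RNAs stay in the nucleus. Neat1 is the scaffold of paraspeckles, nuclear bodies that form around its long isoform and hold proteins and edited RNAs. Malat1 is among the most abundant nuclear RNAs of many tissues and accumulates in nuclear speckles, bodies rich in splicing factors. Its 3′ end is cleaved into a small cytoplasmic RNA, mascRNA. In the RefSeq annotation of GRCm38, both are classed as lncRNA, Malat1 with 1 RefSeq transcript and Neat1 with 2. Both are transcribed from the minus strand, so the end of a peak at the higher coordinate faces upstream.

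The RefSeq promoter table, of build GRCm38.p6, held a start site for 1 of the 2 genes, Malat1. It is shown because the Malat1 peak was found in every library and reached farther upstream in every library after E12.5. The stretch is chr19:5802623-5802922 on the minus strand, 250 bases before the start site and 50 after it. These positions belong to another build and were not set against the peaks. Capitals mark TGACG or its reverse complement CGTCA, the core of the cyclic AMP response element, a motif chosen after the sequence was seen.
Malat1 promoter: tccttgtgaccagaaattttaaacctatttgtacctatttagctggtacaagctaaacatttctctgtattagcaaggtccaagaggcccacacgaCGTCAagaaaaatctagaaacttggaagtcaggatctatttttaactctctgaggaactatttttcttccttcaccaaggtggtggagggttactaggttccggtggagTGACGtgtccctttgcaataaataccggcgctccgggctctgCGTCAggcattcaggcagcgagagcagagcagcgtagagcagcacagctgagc
The motif occurred 3 times on either strand, none overlapping another. Of 32817 mouse promoters of the same length, 20.8% held it at least once and 1.03% held it 3 times or more. The Malat1 stretch held 10 CpG dinucleotides, against a median of 7 over all promoters, and had a G and C content of 47.0%, against a median of 52.67%. On either strand it held no CCAAT, no GGGCGG and no TATAAA, which 37.4%, 35.6% and 13.6% of all promoters held. A match or its absence describes these letters alone.

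Depth and peak width differed between the libraries. The file headers give 12821255 to 43259380 tags and the lists hold 11111 to 17658 peaks. Peaks had a median width of 894 and 908 bp in the E12.5 libraries, of 1279 and 1231 bp in those of E14.5, of 1054 and 1147 bp for ISC, and of 1158 and 1030 bp for enterocytes. A factor that equalized median covered length over the 8903 regions called in all 8 libraries was therefore computed for each library. Its lowest value, 0.72, belonged to E12.5 replicate 1 and its highest, 1.28, to E14.5 replicate 2. Lengths below are as deposited, and are called scaled where divided by that factor.

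At Neat1, the paraspeckle scaffold, no peak was listed in either E12.5 library. Neat1 peaks covered 3831 and 4250 bp in the E14.5 libraries, 2302 and 4458 bp in those of ISC and 3433 and 6099 bp in those of enterocytes. The Neat1 span was thus marked in all 6 libraries after E12.5, with a single unbroken peak in each. The merged region ran from 5841400 to 5847498 on chromosome 19 (6099 bp), which is the extent of the peak in enterocyte replicate 2. E12.5 thus had a mean of 0 bp, E14.5 of 4040.5 bp ± 296, ISC of 3380 bp ± 1525 and enterocytes of 4766 bp ± 1885 (SD, n = 2 each). Ordered by mean length, enterocytes came first, then E14.5, then ISC, and the libraries of each of these groups overlapped those of the next. Scaled, the E14.5 libraries had 3060 and 3326 bp, the ISC libraries 2444 and 4010 bp and the enterocyte libraries 3705 and 5719.8 bp. On that scale ISC and E14.5 had means of 3227 and 3193 bp.

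Malat1, the speckle RNA, carried a wide peak in all 8 libraries. The E12.5 libraries had 4046 and 4748 bp under it, the E14.5 libraries 7398 and 7218 bp, the ISC libraries 4728 and 5549 bp, and the enterocyte libraries 6563 and 6543 bp. The peak was thus widest in both E14.5 libraries, and the ISC libraries overlapped those of E12.5. E12.5 had a mean of 4397 bp ± 496, E14.5 of 7308 bp ± 127, ISC of 5138.5 bp ± 581 and enterocytes of 6553 bp ± 14.1 (SD, n = 2 each). The difference of E14.5 minus E12.5, 2911 bp as deposited, was 140 bp when each length was scaled. Scaling changes every length of a library in proportion, and its factor was set on regions with a median width of 1068 bp at E12.5. Whether a region as wide as Malat1 widens in that proportion was not tested. Scaled, the means were 5639 bp ± 23.3 for E12.5, 5779 bp ± 183 for E14.5, 5006 bp ± 19.5 for ISC and 6609.5 bp ± 669 for enterocytes. In this scaling E12.5 and E14.5 libraries overlapped at Malat1. At Neat1 the scaled E14.5 mean was 3193 bp and the E12.5 mean 0 bp. A length of 0 bp stays 0 under any factor, so scaling could not close the difference at Neat1.

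**Figure D1:**
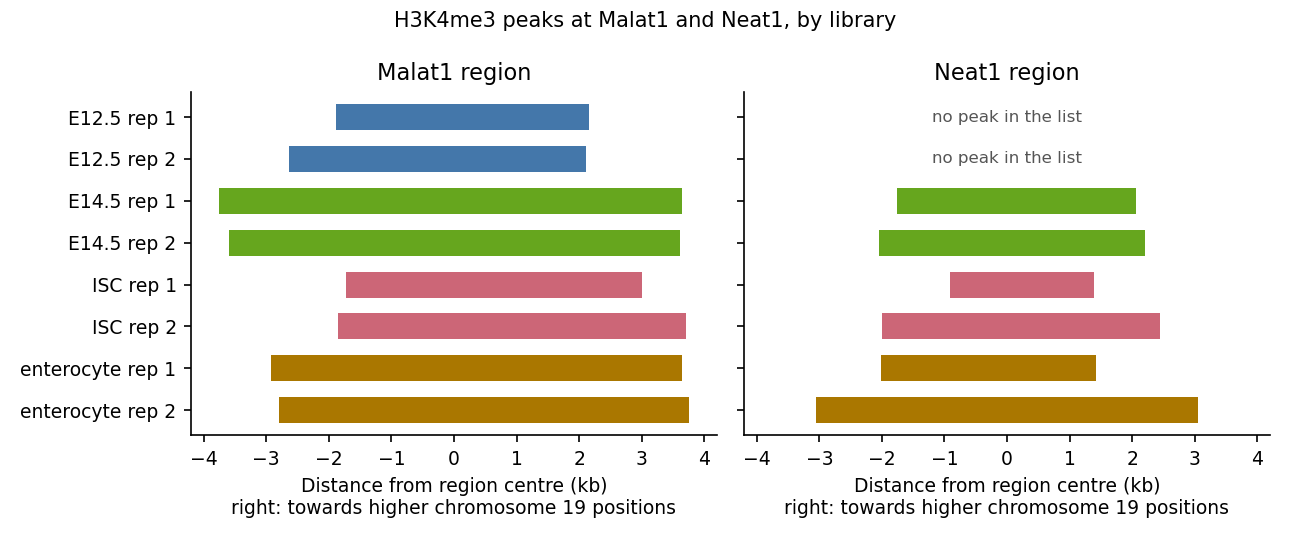
Each bar is 1 listed H3K4me3 peak at Malat1 (left) or Neat1 (right), drawn to scale against the distance in kb from the centre of the merged region, with 1 row per library. At Malat1 the right-hand ends of both E12.5 peaks lie short of the other 6, and at Neat1 the E12.5 rows have no peak.

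**Figure D2:**
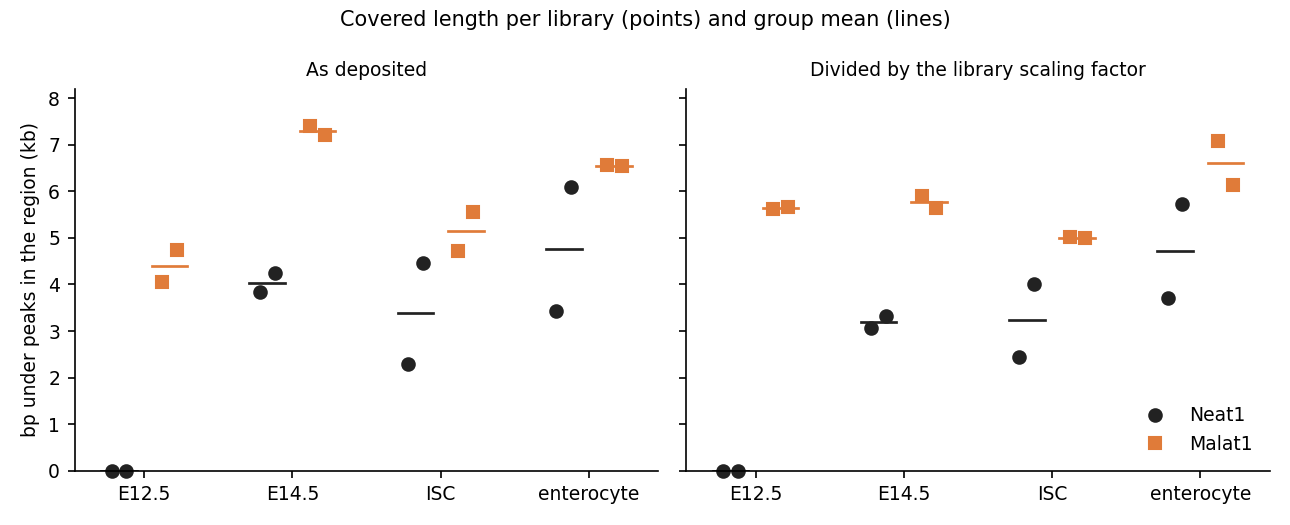
Points are the kb under peaks in the Neat1 (circles) and Malat1 (squares) regions in each library, and lines are means of the 2 libraries of a group, as deposited (left) and scaled (right). Neat1 is at 0 in both E12.5 libraries in either panel, since scaling leaves 0 unchanged. The Malat1 gap between E14.5 and E12.5 in the left panel closes in the right one.

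The absence of Neat1 from the E12.5 lists was set beside the depth and strength of those libraries. ISC replicate 1 and enterocyte replicate 1, in both of which the Neat1 peak was listed, had 13355462 and 12821255 tags, fewer than E12.5 replicates 1 and 2, with 15053166 and 22696869 tags. The median −log10 q of all peaks was 9.465 in ISC replicate 1 and 9.399 in enterocyte replicate 1, against 5.84 in E12.5 replicate 1 and 9.464 in E12.5 replicate 2. By this median, E12.5 replicate 1 was thus weaker than those libraries, and E12.5 replicate 2 about level with them at more tags. At tag numbers near that of E12.5 replicate 2, the median was higher. It was 25.504 in E14.5 replicate 2, with 22718162 tags, and 21.517 in enterocyte replicate 2, with 22137910 tags. Peaks were also narrower at E12.5, and the part of depth, peak strength and width in the missing Neat1 call was not tested.

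Most regions at least as long as Neat1 in the later libraries, or at least as strong, were listed at E12.5. Of the 15802 regions called in both E14.5 libraries, 21% (3314) were called in neither E12.5 library, as Neat1 was. Of the 10153 regions called in all 6 libraries of E14.5, ISC and enterocytes, 6.15% (624) were called in neither E12.5 library and 87.7% in both. Among the 161 of them at least as long as Neat1 by mean scaled length over those 6 libraries (3711 bp), 4 regions, Neat1 included, were called in neither E12.5 library (2.48%) and 155 in both (96.3%). Among the 4857 whose weakest −log10 q in the 6 libraries was at least that of Neat1 (9.12), 25 regions, Neat1 included, were called in neither (0.515%). By length Neat1 was thus the 4th of the 624 regions with this pattern, whose median was 828 bp. Neat1 stood at the lower limit of the sets of 161 and 4857 regions by their definition. Length and strength were not matched together, so these shares do not show how often a region of its own length and strength is missed. The 624 became 1218 without E12.5 replicate 2 and 202 in lists limited to the 11111 strongest peaks each. In those shortened lists Neat1 kept its peak in E14.5 replicate 1 and lost it in E14.5 replicate 2, where it ranked 12120 by −log10 q. Its mean at E14.5 was then 1915.5 bp, as it was with peaks of a −log10 q of at least 10.

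**Figure D3:**
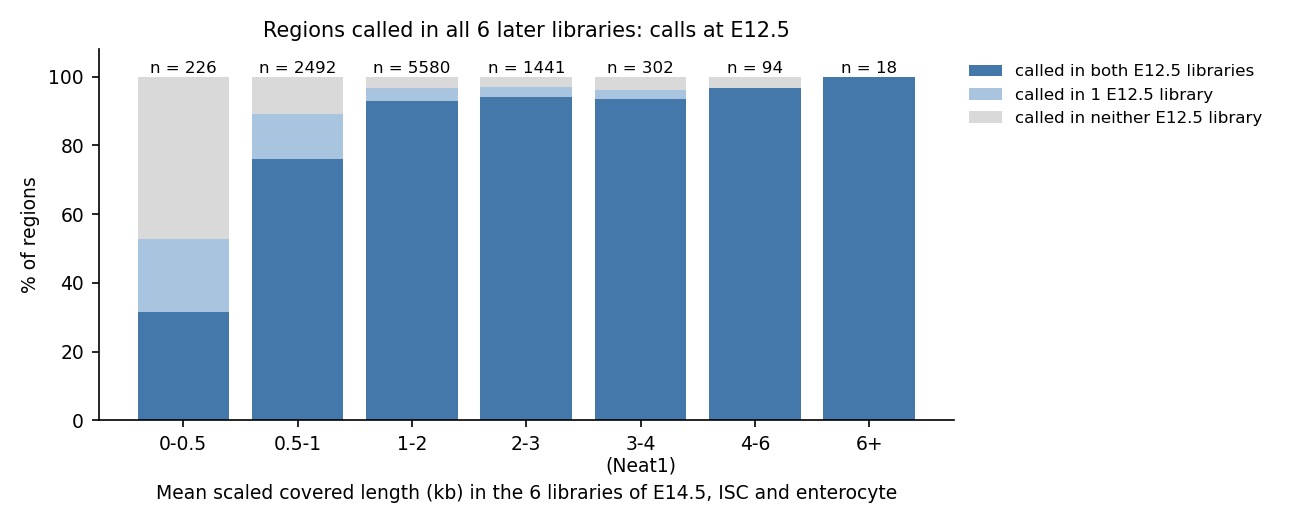
Bars give the percent of regions called in both, 1 or neither E12.5 library, for regions called in all 6 libraries of E14.5, ISC and enterocytes, in bins of mean scaled length in those 6 libraries (kb). Neat1 falls in the bin of 3 to 4 kb, where both E12.5 lists held 93.38% of 302 regions and neither held 3.97%.

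The 5 regions elsewhere in the genome had the pattern of covered length nearest to Neat1 over the 8 libraries, by Euclidean distance on log2(scaled bp + 200). The nearest, at a distance of 0.905, lay on chromosome 14 from 55024884 to 55029651, with a mean of 0 bp for E12.5, 2926 bp for E14.5, 2765.5 bp for ISC and 4460.0 bp for enterocytes. The second, at 0.908, lay on chromosome 7 from 29618674 to 29624371, with means of 0, 2637.5, 3366.5 and 4542 bp in the same order of groups. The third, at 0.922, lay on chromosome 4 from 133152971 to 133157901, with means of 0, 2753.5, 3028.5 and 4676.5 bp. All 3 of these were longer in enterocytes than at E14.5 in every library as deposited. Neat1 was not, with 3433 bp in enterocyte replicate 1 against 3831 and 4250 bp for E14.5. Scaled, Neat1 was longer in both enterocyte libraries, at 3705 and 5719.8 bp against 3060 and 3326 bp. The fourth, at 1.02, was on chromosome 2 from 70311836 to 70316058, with means of 0, 2808.5, 3236.5 and 3396 bp. The fifth, at 1.06, was on chromosome 10 from 79283334 to 79290726, with means of 0, 3707, 3903 and 6842.5 bp. As deposited, the fifth was also longer in both enterocyte libraries than at E14.5, and the fourth was not. Malat1, at a distance of 7.11, was the 11083rd of the 24351 regions compared. The distances describe likeness of length in these 8 libraries, and the regions are given by mm9 position only.

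The Malat1 peak reached farther upstream in every later library than at E12.5, while its other end showed no such order. At the upstream side, the E12.5 peaks ended at 5802623 and 5802575, the E14.5 peaks at 5804115 and 5804086, the ISC peaks at 5803479 and 5804172, and the enterocyte peaks at 5804115 and 5804223. Every later peak thus reached at least 856 bp farther upstream than both E12.5 peaks, and the most extended, in enterocyte replicate 2, 1600 bp farther. At the gene-body side, the E12.5 peaks began at 5798578 and 5797828, the E14.5 peaks at 5796718 and 5796869, the ISC peaks at 5798752 and 5798624, and the enterocyte peaks at 5797553 and 5797681. There the E14.5 and enterocyte peaks reached farther into the gene body than both E12.5 peaks, and the ISC peaks less far than both. All 8 peaks shared 3824 bp, from 5798752 to 5802575.

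Right-hand ends moved outwards after E12.5 at many regions, and the shift at Malat1, a much wider region than most, was large in bp and less so as a share of width. Of the 8903 regions called in all 8 libraries, 37% had right-hand ends in the 6 later libraries that all lay beyond both E12.5 ends. A gap at least as large as at Malat1 occurred at 62 of them (0.696%) on the right and at 121 (1.36%) on either side. The mean right-hand end at E14.5 lay 1501.5 bp beyond that at E12.5 at Malat1, against a median of 290 bp over these regions. The shift was 1226.5 bp in ISC, against a median of 122 bp, and 1570 bp in enterocytes, against a median of 105 bp. Malat1 had a mean width of 4397 bp at E12.5, against a median of 1068 bp over these regions. As a percent of its own E12.5 width, each shift was therefore nearer to the others, at 34.1% for E14.5 against a median of 27.2%, with 38.9% of regions shifted at least as far. In ISC it was 27.9% against 11.6%, with 25.6% of regions at least as far, and in enterocytes 35.7% against 9.81%, with 21.4% at least as far. The look at ends was chosen after their values were seen.

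At Neat1 the ends of the 2 libraries of an adult group lay far apart, and those of E14.5 close together. All 6 peaks shared 2302 bp, from 5843534 to 5845835, which is the whole peak of ISC replicate 1. Upstream, the E14.5 peaks ended at 5846517 and 5846647, the ISC peaks at 5845835 and 5846901, and the enterocyte peaks at 5845868 and 5847498. The 2 E14.5 ends lay 130 bp apart, the 2 ISC ends 1066 bp and the 2 enterocyte ends 1630 bp. In both adult groups the deeper library, replicate 2, had the longer peak, and the part of depth in this was not tested.

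Enterocytes and ISC, both from adult mice, were compared by a test over all regions. These libraries were not part of the E14.5 and E12.5 contrast in which Neat1 had stood out, but their lengths were known when the pair was chosen, so that the test is no independent evidence. At Neat1, enterocytes had 3433 and 6099 bp and ISC 2302 and 4458 bp, so that the libraries overlapped. The log2 change of enterocytes over ISC on the log2(scaled bp + 200) scale was 0.53 ± 0.28 (SE), with a 95% interval of -0.17 to 1.23, and did not pass (limma, adjusted p = 0.413). It was 0.19 without ISC replicate 1, 0.23 without enterocyte replicate 2, 0.85 without enterocyte replicate 1 and 0.86 without ISC replicate 2. At Malat1, enterocytes had 6563 and 6543 bp and ISC 4728 and 5549 bp. There the log2 change was 0.38 ± 0.11 (SE), with an interval of 0.10 to 0.67, and did not pass either after adjustment over 17679 regions (limma, unadjusted p = 0.0164, adjusted p = 0.136). Of all tested regions, 4.35% passed as longer in enterocytes (769) and 3.17% as shorter (561), 7.52% in all. With quantile normalization the balance turned, at 691 longer and 750 shorter. Without single libraries the counts ranged from 290 to 818 longer and from 212 to 1710 shorter. They were 384 and 212 without E14.5 replicate 1, 397 and 218 without E14.5 replicate 2, 290 and 287 without enterocyte replicate 1, 401 and 1710 without enterocyte replicate 2, and 818 and 302 without ISC replicate 2. Both E12.5 libraries at 0 bp add no spread to the Neat1 fit but count in its degrees of freedom, so its SE may be too small. The same holds for other regions with no peak in either library of a group, which the counts above include. With only the ISC and enterocyte libraries fitted, the change was 0.50 at Neat1 (limma, adjusted p = 0.506) and 0.36 at Malat1 (adjusted p = 0.423), and 103 regions were longer and 15 shorter.

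The strength of the 2 peaks relative to each other was read within each list, where both peaks share library, input and depth. Fold enrichment over input, as the authors' caller gave it, was 4.93 at Neat1 and 13.4 at Malat1 in E14.5 replicate 1, and 5.32 and 15.5 in E14.5 replicate 2. It was 5.11 at Neat1 and 5.90 at Malat1 in ISC replicate 1, and 7.01 and 7.10 in ISC replicate 2. In enterocytes it was 7.96 at Neat1 and 9.73 at Malat1 in replicate 1, and 10.8 and 9.70 in replicate 2. The ratio of Neat1 over Malat1 was thus 0.369 and 0.344 for E14.5, 0.866 and 0.988 for ISC, and 0.818 and 1.12 for enterocytes. Both E14.5 ratios lay below all 4 adult ratios, and those of ISC and enterocytes overlapped. Malat1 had its highest fold enrichments at E14.5, while Neat1 at E14.5 was near its value in ISC replicate 1. By mean pileup, the height of stacked fragments, both E14.5 ratios also lay below all 4 adult ratios, with values of 0.522 and 0.435 for E14.5, 1.39 and 1.60 for ISC, and 1.21 and 1.58 for enterocytes. In ISC, Malat1 was thus the stronger peak by fold enrichment and Neat1 by pileup. At Malat1, fold enrichment was 6.29 and 5.91 at E12.5, in lists without a Neat1 peak. This comparison was chosen after the values were seen, covers this pair of peaks alone and has no test.

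By −log10 q, Malat1 was the stronger peak at E14.5, at 63.2 and 46.4 against 15.6 and 9.47 for Neat1. In ISC Neat1 was the stronger in both libraries, at 9.12 and 28.7 against 8.51 and 18.4 for Malat1. In enterocytes Neat1 had 19.3 and 44.0 and Malat1 19.5 and 26.9, so that the 2 genes were level in replicate 1 and Neat1 was stronger in replicate 2. At E12.5, Malat1 had 10.04 and 11.2.

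By width, Malat1 stood near the top of every list and Neat1 in the upper part. Malat1 was the 40th and 26th widest peak of the E12.5 lists, the 19th and 20th of the E14.5 lists, the 58th of both ISC lists, and the 20th and 37th of the enterocyte lists, which put it within the widest 0.439% of each list. Neat1 was the 338th and 229th widest of the E14.5 lists, the 1000th and 134th of the ISC lists, and the 373rd and 50th of the enterocyte lists, within the widest 7.57%. Neat1 stood higher by width than by strength in all 6 of its lists. By fold enrichment it was within the top 70.1% and 70.9% of the E14.5 lists, 60.4% and 45.8% of the ISC lists, and 5.61% and 12.4% of the enterocyte lists. Malat1 was within the top 8.05% and 34.6% of the E12.5 lists, 6.28% and 18.2% of the E14.5 lists, 44.4% and 44.8% of the ISC lists, and 1.07% and 21.2% of the enterocyte lists. By −log10 q, Neat1 ranked 10758 and 12120 for E14.5, 6871 and 5756 for ISC, and 605 and 3532 for enterocytes. Malat1 ranked 1417 and 5790 for E12.5, 2195 and 4512 for E14.5, 7339 and 8460 for ISC, and 590 and 7527 for enterocytes. The lists differ in length, so that these ranks place a peak within its own list and show no change between lists.

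**Figure D4:**
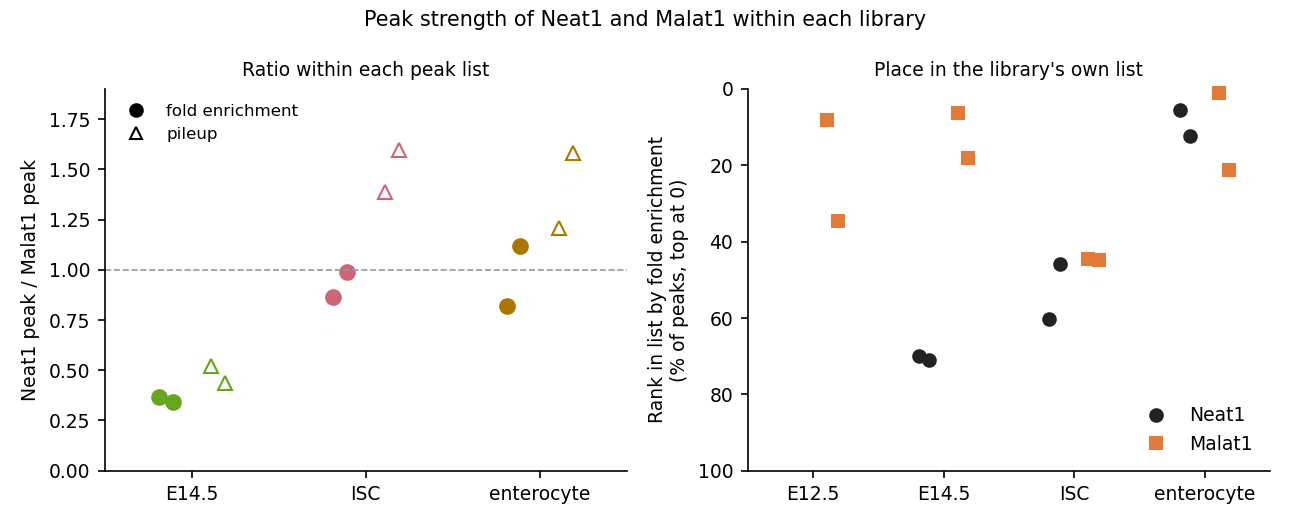
Left, the ratio of the Neat1 peak over the Malat1 peak in each list, by fold enrichment (filled circles) and by mean pileup (open triangles), with a dashed line at 1; both E14.5 libraries lie below all adult ones. Right, the place of each peak in its library's own list by fold enrichment, in percent of peaks with the strongest at 0, for Neat1 (circles) and Malat1 (squares).

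Between the spans used to place the 2 genes, 2 small peaks were listed, both in enterocyte replicate 2. The spans are approximate, and whether these peaks lie inside the transcribed part of either gene was not determined. They covered 158 bp from 5816409 and 685 bp from 5829417, with fold enrichments of 2.98 and 3.10. By −log10 q they ranked 15935 and 15722 of the 17007 peaks of that list, near its lower end. No other library listed a peak there.

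Regions around the pair that were called in all 6 later libraries were mostly called at E12.5, as were such regions in the whole genome. Within 250 kb on either side of the window lay 34 merged regions besides those of Neat1 and Malat1, the small peaks between the spans included. Of these, 20 were called in all 8 libraries. Of the 22 called in all 6 later libraries, both E12.5 lists held 20, only one of them held 1 and neither held 1. Over all 10153 regions called in those 6 libraries, both E12.5 lists held 87.7% and neither held 6.15%. The E12.5 lists held 22 and 23 of the 34, the E14.5 lists 25 and 27, the ISC lists 24 and 25, and the enterocyte lists 23 and 32. The region missing at E12.5, singled out after its values were seen, ran from 5723940 to 5726627, 119 kb from Neat1 on the Malat1 side. Its peaks covered 175 and 812 bp for E14.5, 436 and 910 bp for ISC, and 2170 and 2688 bp for enterocytes. A region 35.2 kb from Neat1 on the other side, from 5878485 to 5880748, was called in both enterocyte libraries, over 1796 and 2264 bp, and in none of the other 6. It too was chosen after its values were seen.

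**Figure D5:**
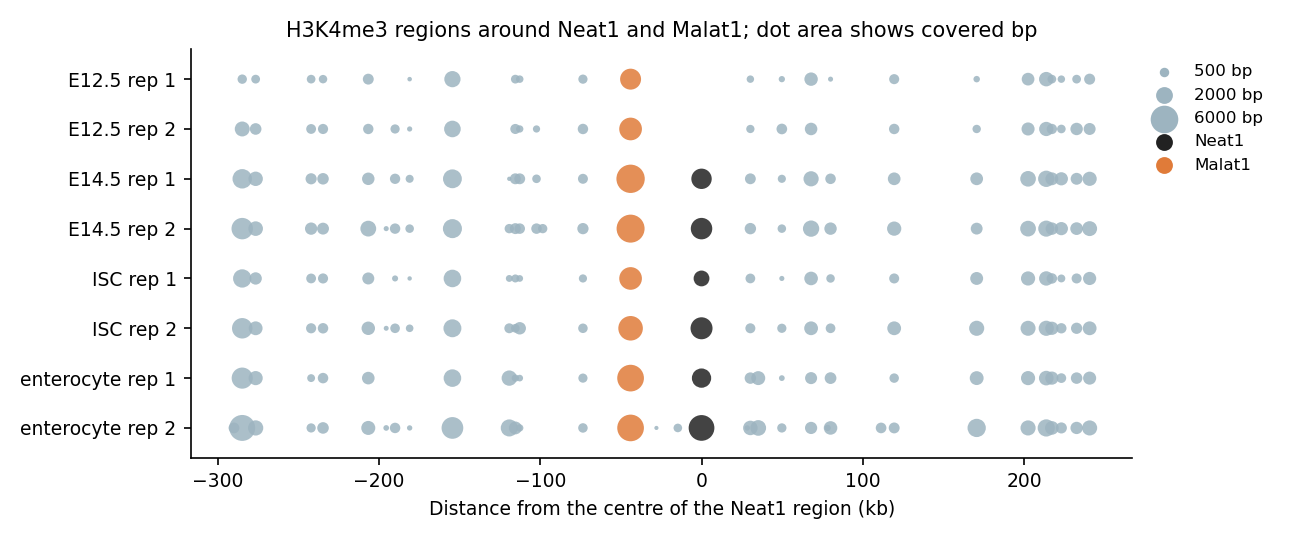
Dots are merged H3K4me3 regions within 250 kb of the window, at their distance in kb from the centre of the Neat1 region, with 1 row per library and dot area in proportion to covered bp. The Neat1 column is empty in both E12.5 rows, while Malat1 and most neighbours have a dot in every row.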

How the data were processed

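ChIP-seq of H3K4me3 gave 8 libraries. A further 4 input samples served as controls of the peak calls and were not analysed here on their own. Groups and replicate numbers come from the sample titles. Per the file headers, the authors called peaks per library with MACS 2.0.10.20130712 in its broad mode and 1 input per group. The headers name a q-value cutoff of 0.01, but the lowest −log10 q of a deposited list was 1.005 to 1.093, so the lists also hold peaks with a q above 0.01, and the cutoff for broad peaks is not given there. Per the submitters' processing notes, the build was mm9 and the tools included bcl2fastq 1.8.4, SAMtools 1.2 and Bowtie 1.1.2. The deposited lists give each peak's position and length, pileup signal, −log10 p and q, and fold enrichment as a ratio. They hold no read counts per region, so a missing peak means only that the authors' caller did not report one at that depth.

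Peaks that overlapped or touched were merged over the 8 lists, and covered bp were summed per library. In R 4.3.3, limma 3.58.1 was run on log2(scaled bp + 200) of the 17679 regions with a call in 2 or more libraries. All 4 groups were in the fit, with a trended prior, and the two-sided threshold was 0.05 after Benjamini-Hochberg adjustment. The fit had 4 residual and 1.52 prior degrees of freedom. Alternatives were other pseudocounts, scalings, region filters, peak thresholds, merging gaps, a replicate block and each library left out. Named were the members, all peaks in their window, neighbours within 250 kb and the 5 regions nearest in pattern to Neat1. Genes of nuclear bodies and cell type markers were to be described only with an annotation of mm9, and none was used. The members and lists were chosen with earlier results of these data known.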

Additional observations from a re-analysis of the deposited data

How the results depend on the processing

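The log2 change of enterocytes over ISC kept its direction and stayed short of the threshold at both genes under all 20 alternatives. Its adjusted p ran from 0.206 to 0.998 at Neat1 and from 0.0538 to 0.998 at Malat1 (limma). With 1 library left out it lay between 0.19 and 0.86 at Neat1 and between 0.31 and 0.48 at Malat1. It was larger with peaks of a −log10 q of at least 10, at 2.37 and 2.72, where the peaks of both genes in ISC replicate 1 fell below that limit. The E14.5 minus E12.5 difference at Neat1 was 1915.5 bp with those peaks and in lists of equal number (the 11111 strongest peaks of each), 3193 bp when scaled, and 3831 to 4250 bp with 1 library left out. At Malat1 it was 140 bp when scaled and 2560 to 3262 bp with 1 library left out. Regions called in neither E12.5 library and in all 6 others numbered 202 in lists of equal number, and 628 to 1218 with 1 library left out. Over all regions, 769 were longer and 561 shorter in enterocytes than in ISC. These became 307 and 348 where a call in 4 or more libraries was required, 146 and 23 with a −log10 q of at least 10, and 103 and 15 with only the adult libraries fitted. With 1 library left out, longer regions numbered 290 to 818 and shorter ones 212 to 1710. The libraries that moved either count by over 1.5 times were both of E14.5, both of enterocytes and ISC replicate 2. Quantile normalization gave 691 and 750. Apart from the peaks under the limit named above, the cause was not tested. Same-numbered libraries deviated together with correlations of 0.021 to 0.311 over the 6 pairs of groups. The highest, 0.311, was that of ISC and enterocytes, the contrast tested. All were positive, which with 2 libraries a group is the same as each library correlating best with its own number. Not all pairs passed 0.1, so that the numbers were not taken to pair the libraries. With replicate number as a block, 701 regions were longer and 494 shorter, and the adjusted p was 0.266 at Neat1 and 0.127 at Malat1. Depth limits what a missing peak can show, and 2 libraries a group limit every test.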
